A study of Mus musculus with 12 samples.

Results

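Forkhead transcription factors carry a winged-helix DNA-binding domain and read closely related short motifs, and their named subfamilies act in vessels, endoderm, mesenchyme, lymphocytes and dividing cells. In blood and lymphatic vessels FOXC1 and FOXC2 take part in arterial specification and in the building of lymphatic valves, while FOXF1 is best known from lung endothelium and FOXP1 from lymphocytes and heart. The members described here are all probe sets whose gene symbol is Fox followed by a subfamily letter from a to s and a number, leaving out Foxo1, Foxo3 and Foxo4. They were 40 genes with 1 probe set each, out of 25428 probe sets on the array. The rule uses gene symbols alone, though it was set with earlier results of these data known.

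Expression was measured on 12 Affymetrix microarrays, 6 of liver sinusoidal endothelial cells (LSEC) from NICD-OE-HEC mice and 6 of LSEC from Control mice. The NICD-OE-HEC mice carried Clec4g-Cre, which acts in hepatic endothelium, and Rosa26-N1ICD-IRES-GFP, an allele that expresses the intracellular domain of Notch1 together with GFP. The labels give the Control mice only as Ctrl, and the sources used here do not give their alleles or the age and sex of any mice. Each sample pooled cells of 3 mice, selected with beads against CD146 after a density gradient, so a value is the mean of a pool and of all cells in it. The values are log2 RMA expression (background corrected, quantile normalized and summarized by the authors), the difference is NICD-OE-HEC minus Control, and a gene is called at an adjusted p under 0.05 over all probe sets in limma. The comparison asks which forkhead genes differ when Notch signalling is raised in these cells.

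The labels fit their markers in part. Of 6 genes shared by all endothelium, Pecam1 was higher by 0.33, Kdr and Egfl7 were lower (-0.60 and -0.36), and Cdh5, Tie1 and Erg were not called. The list mean ran from 10.30 to 10.44 in NICD-OE-HEC and from 10.35 to 10.53 in Control. Hey1, a repressor induced by Notch, averaged 7.11 in NICD-OE-HEC and 4.42 in Control. All 8 sinusoidal markers were called, with 7 lower and 1 higher in NICD-OE-HEC. Markers of other cells differed as well: 5 of 5 neutrophil genes, 5 of 6 mural cell genes, 4 of 5 cholangiocyte genes, 4 of 7 hepatocyte genes and 8 of 10 early-response genes were higher, while of 7 stellate cell and fibroblast genes Col1a1 was higher (2.49) and Lrat lower (-0.75). Of the remaining lists, 0 of 4 B cell, 0 of 6 T cell and 0 of 5 macrophage genes were called in limma, with 0, 1 and 1 at an unadjusted p under 0.05. In pools of this kind fewer cells of a type and less RNA per cell cannot be told apart.

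Of the 40 forkhead genes 2 rose, Foxc2 and Foxp4, and 1 fell, Foxn3. That is 7.5% of the members, against 10.5% of all probe sets called in either direction, so forkhead genes were not called at a higher rate than the array as a whole. By direction, the shares over all probe sets were 4.89% higher and 5.59% lower. For the same 3 genes no NICD-OE-HEC value fell within the range of Control, again 7.5%, against 6.68% of all probe sets. At an unadjusted p under 0.05 there were 5 members (12.5%), against 21.7% of all probe sets. The median difference of the members was 0.02 and that of all probe sets -0.01.

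Foxc2, a regulator of arterial and lymphatic valve development, had the largest difference of the 40. It ranged from 5.64 to 7.22 with a median of 5.97 in NICD-OE-HEC, against 4.41 to 5.37 with a median of 4.63 in Control. Every NICD-OE-HEC array lay above every Control array, and NICD-OE-HEC 5 and 4 (7.22 and 6.55) were the highest of their group. The means were 6.17 ± 0.63 in NICD-OE-HEC and 4.79 ± 0.39 in Control (SD, n = 6 each), a 2.61-fold higher level in NICD-OE-HEC. The log2 difference was 1.38 (SE 0.26, limma adjusted p = 0.00210), and it stayed between 1.17 and 1.50 when single arrays were left out.

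Early-response genes, a class that tissue dissociation is known to induce, moved with Foxc2 among the NICD-OE-HEC arrays. Their list mean was 10.02 on NICD-OE-HEC 5, where Foxc2 was highest, and 8.23 on NICD-OE-HEC 1, where Foxc2 was lowest, while over the Control arrays it ran from 6.79 to 8.41. In Control the array with the highest Foxc2, replicate 2, had a list mean of 7.18, low in that range. Control 5, with the next highest Foxc2 (5.16), had the highest list mean (8.41). Whether dissociation had a part was not tested. Fitted beside the early-response mean, the Foxc2 difference was 0.47 (limma adjusted p = 0.741), beside the mural mean 0.79 (limma adjusted p = 0.627) and beside the neutrophil mean 1.04 (limma adjusted p = 0.496), with no call in these 3 fits. Beside the hepatocyte mean it was 1.68 and was called (limma adjusted p = 0.00298). These means follow the groups, the hepatocyte mean least closely. It ran from 7.24 to 8.81 in NICD-OE-HEC and from 6.55 to 7.98 in Control, while the mural and neutrophil means did not overlap. In the order given, the fits left 674, 476, 426 and 1805 calls among all probe sets, in place of 2666.

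Mural cells and lymphatic endothelium are other places where FOXC2 is known to act. The mean of 6 mural genes ran from 5.86 to 6.31 in NICD-OE-HEC and from 5.04 to 5.66 in Control, with no overlap. The mean of 4 lymphatic genes ran from 5.96 to 6.29 in NICD-OE-HEC and from 5.70 to 6.46 in Control. Among these Prox1, the master factor of lymphatic identity, rose by 0.91 and the receptor Flt4 fell (-0.56). Flt4 averaged 10.44 in NICD-OE-HEC and 11.00 in Control, within the levels of the sinusoidal markers, and Prox1 4.73 and 3.82. Reln, another of the lymphatic genes, is also on the stellate cell and fibroblast list. The share of lymphatic cells in the pools was not tested.

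Foxc1, the closest relative of Foxc2, gave no call. It ranged from 4.34 to 4.88 with a median of 4.57 in NICD-OE-HEC, against 4.07 to 4.86 with a median of 4.79 in Control. The groups overlapped, and the lowest of all 12 values was Control 2 at 4.07. The difference was -0.09 with a 95% interval of -0.39 to 0.20 (limma adjusted p = 0.783). Foxc2 minus Foxc1 within an array was greater by 1.48 in NICD-OE-HEC than in Control (SE 0.39, n = 6 each). This pair was chosen after the values were seen, so it is given as a description without a p-value.

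Foxc1 and Foxc2 each stand beside other forkhead genes in the mouse genome. In a RefSeq table of GRCm38.p6, 1 gene lies between Foxf1 and Foxc2 and 0 between Foxc2 and Foxl1, while Foxq1, Foxf2 and Foxc1 follow each other with 2 genes in each gap. None of the neighbours was called. Foxf1, known from lung endothelium and stellate cells, had a range of 4.62 to 5.01 in NICD-OE-HEC and of 4.52 to 5.07 in Control (difference -0.09, 95% interval -0.32 to 0.15). Foxl1, a factor of gut mesenchyme, was below the array median on all 6 NICD-OE-HEC arrays and 5 of 6 Control arrays (difference -0.02, 95% interval -0.25 to 0.21). Foxq1 and Foxf2 differed by -0.07 and 0.01, both below the array median on all 12 arrays.

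**Figure D1:**
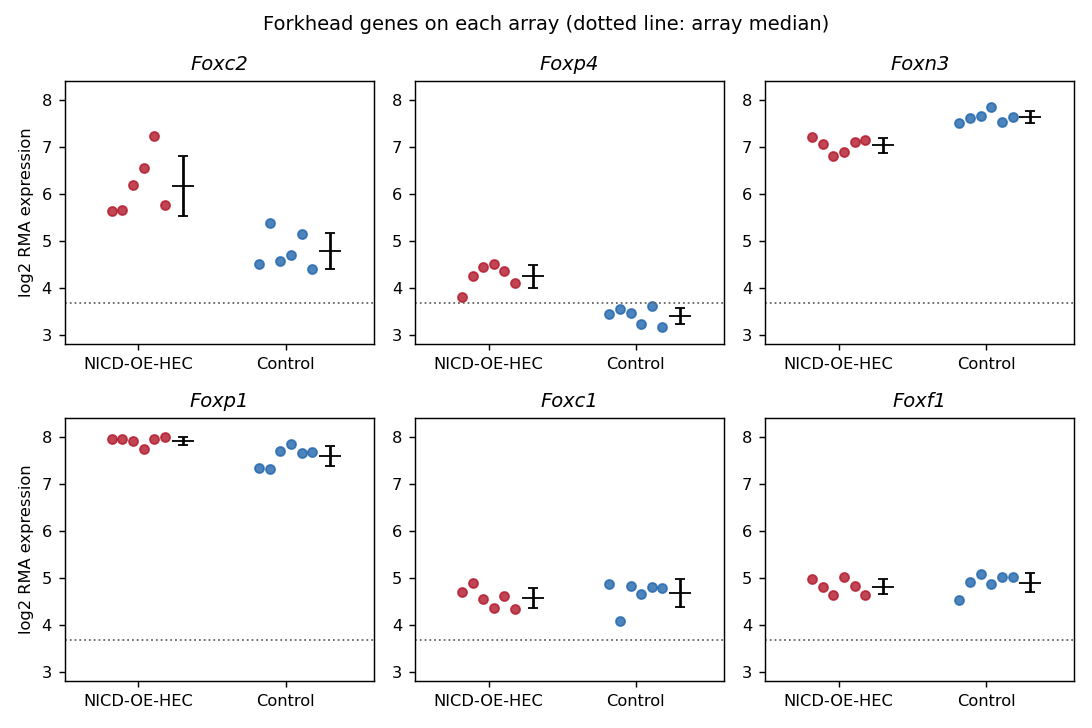
Log2 RMA expression of 6 forkhead genes on each of the 6 NICD-OE-HEC (red) and 6 Control (blue) arrays, with the group mean and SD as a black bar and the array median of 3.67 as a dotted line. Foxc2 and Foxp4 lie higher and Foxn3 lower on every NICD-OE-HEC array, Foxp4 crosses the array median, and the groups overlap for Foxp1, Foxc1 and Foxf1.

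Foxp4 and Foxp1 belong to the FOXP subfamily, repressors that pair with each other through a leucine zipper. Foxp4, known from lung and gut epithelium, ranged from 3.81 to 4.50 with a median of 4.30 in NICD-OE-HEC, against 3.17 to 3.61 with a median of 3.45 in Control. All 6 NICD-OE-HEC values lay above the array median of 3.67 and all 6 Control values below it, and Foxp4 was the only member with that pattern. Its difference was 0.83 (SE 0.12, limma adjusted p = 2.70e-04), between 0.78 and 0.92 with single arrays left out. These values carry no detection calls, so a low level may be background, and the size of this rise, 1.78-fold on the linear scale, is not exact.

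Foxp1, which restrains lymphocyte activation and is also present in endothelium, came just short of a call. It ranged from 7.74 to 7.98 with a median of 7.95 in NICD-OE-HEC, against 7.32 to 7.84 with a median of 7.66 in Control. Only NICD-OE-HEC 4, at 7.74, lay within the range of Control. The difference was 0.33 (SE 0.10, 95% interval 0.11 to 0.55, limma adjusted p = 0.0513). It passed at 0.0290 when the dimmest 50% of probe sets were left out and ranged from an adjusted p of 0.0290 to 0.108 over single arrays left out.

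Fitted beside the early-response, mural and neutrophil means, Foxp4 differed by 0.51, 0.75 and 0.84 and was not called (limma adjusted p = 0.267, 0.190 and 0.143), while beside the hepatocyte mean it was 0.95 and was called (limma adjusted p = 9.82e-04). Beside the neutrophil mean the difference was close to the 0.83 of the fit without covariates, and the call was lost all the same. The means follow the groups, the hepatocyte mean least closely, so these fits cannot tell their part from that of the group. Foxp3, the factor of regulatory T cells, had group means of 3.49 in NICD-OE-HEC and 3.33 in Control, both below the array median, and 5 of the 6 T cell markers were below it in both groups too. Foxp2, known from the nervous system, was below the array median on all 12 arrays. Neither was called, with differences of 0.17 and 0.10.

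Foxn3, a repressor first described in checkpoint control and known in liver for glucose metabolism, fell. It ranged from 6.80 to 7.21 with a median of 7.08 in NICD-OE-HEC, against 7.52 to 7.84 with a median of 7.63 in Control. No NICD-OE-HEC array reached the lowest Control value, and both groups were tight, with SDs of 0.16 and 0.12. The level was 1.52-fold lower in NICD-OE-HEC (log2 difference -0.60, SE 0.09, limma adjusted p = 4.51e-04), between -0.64 and -0.55 with single arrays left out. Fitted beside the early-response, mural and neutrophil means, it was -0.44, -0.72 and -0.51 and was not called (limma adjusted p = 0.236, 0.0786 and 0.287), while beside the hepatocyte mean it was -0.64 and was called (limma adjusted p = 0.00390). Beside the mural mean the difference was larger in size than the -0.60 of the fit without covariates, yet it was not called. As for Foxp4, these means follow the groups, the hepatocyte mean least closely. The part of early-response genes and of other cell types in the results for Foxc2, Foxp4 and Foxn3 was not tested further.

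None of the 3 other FOXN genes was called. Foxn2 averaged 6.53 ± 0.13 in NICD-OE-HEC and 6.38 ± 0.13 in Control (SD, n = 6 each; difference 0.15, 95% interval -0.04 to 0.34). Foxn3 minus Foxn2 within an array differed by -0.75 between the groups (SE 0.08), again given as a description without a p-value. Foxn1, the factor of thymic epithelium, and Foxn4, known from retina and spinal cord, had group means below the array median and differences of -0.16 and -0.23, in the direction of Foxn3, at levels where a change could be hidden by background.

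Upstream sequence from RefSeq on GRCm38.p6 was matched to 26 of the 40 members, in 31 windows of 250 bases before a listed transcription start. Sequences are shown for both called genes that have one, Foxp4 and Foxn3, and for Foxc1 and Foxp1 beside them. A set of 3 short motifs was searched on both strands: TGGGAA (reverse TTCCCA), the core bound by RBPJ, the DNA-binding partner of the Notch intracellular domain, TGTTTA (reverse TAAACA), a forkhead core, and CACGCG (reverse CGCGTG), bound by HEY proteins. Matches are in capitals, and all 4 windows are written 5′ to 3′ on the gene's strand. Foxp4 is at chr17:47924633-47924882 (minus strand), Foxn3 at chr12:99450075-99450324 (minus strand), Foxc1 at chr13:31806396-31806645 (plus strand) and Foxp1 at chr6:99520994-99521243 (minus strand), the last being 1 of 3 windows listed for that gene.
Foxp4: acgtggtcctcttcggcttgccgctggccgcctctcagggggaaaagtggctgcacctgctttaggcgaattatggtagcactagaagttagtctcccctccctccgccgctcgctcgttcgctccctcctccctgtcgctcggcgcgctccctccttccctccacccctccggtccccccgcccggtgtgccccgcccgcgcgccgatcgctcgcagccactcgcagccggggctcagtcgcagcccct
Foxn3: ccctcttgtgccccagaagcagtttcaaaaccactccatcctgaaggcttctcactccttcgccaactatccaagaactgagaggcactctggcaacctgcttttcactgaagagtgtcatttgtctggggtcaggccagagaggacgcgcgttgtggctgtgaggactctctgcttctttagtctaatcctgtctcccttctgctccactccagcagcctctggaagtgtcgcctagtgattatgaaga
Foxc1: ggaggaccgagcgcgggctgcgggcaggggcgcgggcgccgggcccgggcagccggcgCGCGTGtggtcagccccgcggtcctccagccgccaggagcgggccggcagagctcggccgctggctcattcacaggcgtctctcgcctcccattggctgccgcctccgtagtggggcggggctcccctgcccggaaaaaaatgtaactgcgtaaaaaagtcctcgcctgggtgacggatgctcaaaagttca
Foxp1: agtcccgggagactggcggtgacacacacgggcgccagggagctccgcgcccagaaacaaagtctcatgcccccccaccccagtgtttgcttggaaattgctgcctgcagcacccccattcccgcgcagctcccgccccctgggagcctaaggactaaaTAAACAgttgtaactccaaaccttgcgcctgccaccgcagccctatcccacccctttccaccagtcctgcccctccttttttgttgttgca

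The letters of the RBPJ core were in 3 of the 31 member windows, against 21.6% of all 32851 windows in the table. These belonged to Foxe3, Foxi1 and Foxr2, none of which was called. The forkhead core was in 5 of the 31, all 3 windows of Foxp1 and windows of Foxa1 and Foxp3, against 12.03% of all windows. The HEY motif was in 2 of the 31, those of Foxc1 and Foxd3, against 7.62% of all windows. The bases G and C made up 61.6% of the member windows and 53.2% of all windows. Motif shares were not adjusted for this. The windows of Foxp4 and Foxn3 held none of the 3 motifs. Foxc2, the other called gene, had no window and was not searched.

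FOXK, FOXJ and FOXM factors showed levels above the array median with no call. FOXK1 and FOXK2 are repressors known for steering glucose use and autophagy. Foxk1 averaged 6.35 ± 0.33 in NICD-OE-HEC and 6.49 ± 0.27 in Control, and Foxk2 6.47 ± 0.21 in NICD-OE-HEC and 6.41 ± 0.17 in Control (SD, n = 6 each). Their 95% intervals were -0.48 to 0.20 for Foxk1 and -0.17 to 0.30 for Foxk2, so differences within these limits remain possible.

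Foxj3 and Foxj2, widely expressed activators, averaged 6.55 and 6.69 in NICD-OE-HEC and 6.78 and 6.86 in Control. Foxj3 was the fifth member by unadjusted p, with a difference of -0.23 (SE 0.09, limma adjusted p = 0.150), and Foxj2 differed by -0.17 (limma adjusted p = 0.444). Foxj1, the master factor of motile cilia, had group means of 4.02 in NICD-OE-HEC and 3.89 in Control. Foxm1, which drives genes of mitosis, ranged from 3.67 to 4.24 in NICD-OE-HEC and from 3.36 to 4.47 in Control (difference 0.23, 95% interval -0.10 to 0.56).

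The FOXA genes are pioneer factors of endoderm and hepatocytes. Foxa2 and Foxa3 lay above the array median on all 12 arrays, with means of 4.75 and 4.48 in NICD-OE-HEC and 4.72 and 4.40 in Control. Foxa1 lay near it, at 3.87 in NICD-OE-HEC and 3.73 in Control. Their differences of 0.03, 0.08 and 0.15 were not called, on arrays where 4 of 7 hepatocyte genes were called higher. These were Tat (1.76), Ttr (0.89), Apoa1 (0.86) and Alb, the main hepatocyte product (1.13, SE 0.21, limma adjusted p = 0.00174). The others, Fgb (1.03), Apob (0.29) and Cyp2e1 (-0.33), were not called. The mean of the 7 hepatocyte genes ran from 7.24 to 8.81 in NICD-OE-HEC and from 6.55 to 7.98 in Control.

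By group mean, 23 of the 40 members were above the array median in NICD-OE-HEC and 23 in Control, of which 22 were above it in both. Foxp4 was above it only in NICD-OE-HEC and Foxi2, a factor of ectoderm, only in Control (3.67 in NICD-OE-HEC, just under the median, and 3.85 in Control). On all 12 arrays 15 members were above it: Foxa2, Foxa3, Foxc1, Foxc2, Foxd3, Foxe1, Foxf1, Foxi1, Foxj2, Foxj3, Foxk1, Foxk2, Foxn2, Foxn3 and Foxp1. On all 12 arrays 11 were below it: Foxb1, Foxd1, Foxd4, Foxf2, Foxh1, Foxn1, Foxp2, Foxq1, Foxr1, Foxr2 and Foxs1. The other 14 lay on both sides. Nearest to the threshold in NICD-OE-HEC were Foxo6 and Foxi3 (3.72 each) above it and Foxi2 and Foxl2 (3.67 each) below it, and in Control Foxa1 (3.73) above it and Foxl2 (3.60) below it.

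**Figure D2:**
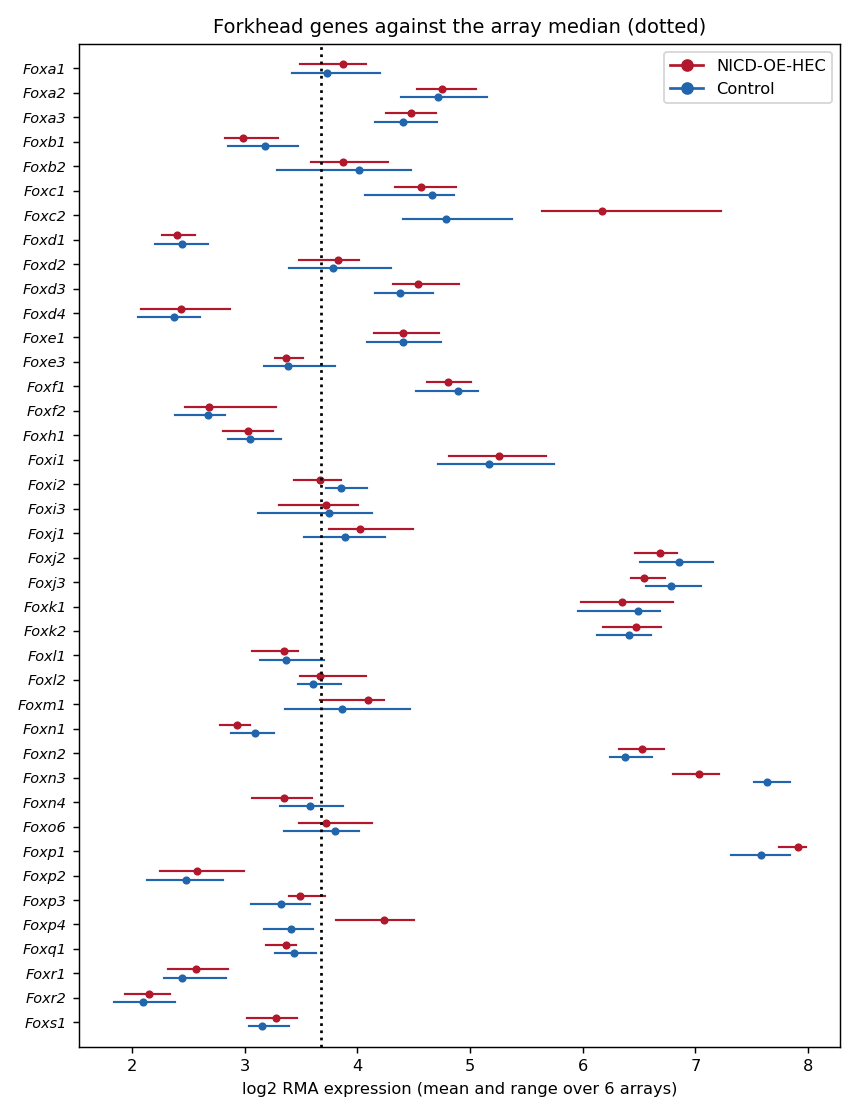
Log2 RMA expression of the 40 forkhead genes in alphabetical order, as the mean (point) and range (line) over 6 NICD-OE-HEC arrays (red) and 6 Control arrays (blue), with the array median of 3.67 as a dotted line. The ranges of both groups are apart for Foxc2, Foxn3 and Foxp4, and 15 genes lie wholly to the right of the line in both groups.

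Several members above the array median are known from tissues other than endothelium. Foxi1, a factor of ion-transporting cells in inner ear and kidney, averaged 5.26 ± 0.34 in NICD-OE-HEC and 5.16 ± 0.40 in Control, Foxd3, of the neural crest, 4.54 ± 0.24 in NICD-OE-HEC and 4.38 ± 0.19 in Control, and Foxe1, of the thyroid, 4.41 ± 0.26 in NICD-OE-HEC and 4.40 ± 0.24 in Control (SD, n = 6 each). Probe sets differ in how brightly they bind, so a value above the median does not show by itself that a gene is expressed. Foxb2, Foxd2, Foxi3 and Foxo6 had group means between 3.72 and 4.02, with differences from -0.14 to 0.05.

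Apart from the 3 called genes and Foxp1, the 36 remaining members differed by between -0.23 and 0.23, with adjusted p-values of 0.150 or more in limma. Their 95% intervals reached from -0.54 at the lowest to 0.56 at the highest. Of all 40 members 22 had positive and 18 negative differences. The median size of a difference, sign left aside, was 0.11 over the members and 0.13 over all probe sets.

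**Figure D3:**
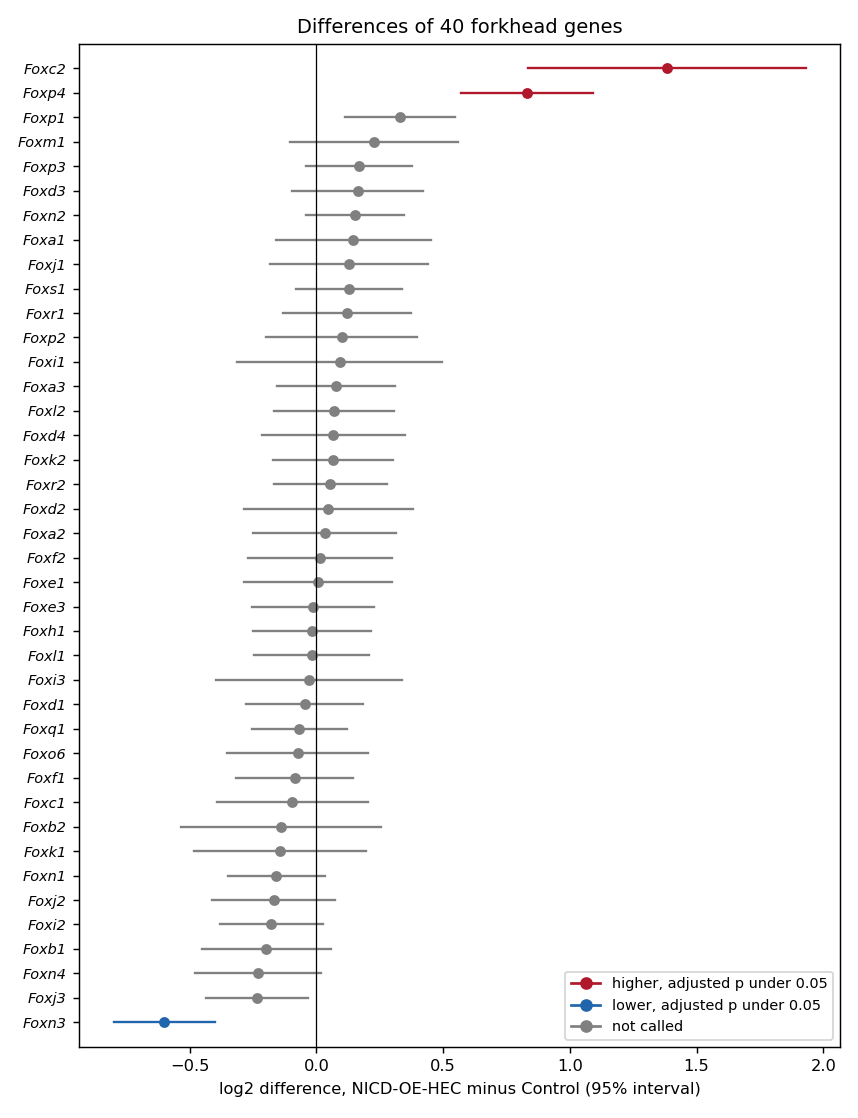
Log2 difference of each of the 40 forkhead genes, NICD-OE-HEC minus Control, with its 95% interval from limma, ordered by size. Foxc2 (1.38) and Foxp4 (0.83) are called higher, Foxn3 (-0.60) is called lower, and the interval of Foxp1 (0.11 to 0.55) lies above 0 without a call.

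Genes tied to forkhead factors were taken from 5 lists with 62 measured genes, of which 10 were higher and 5 lower in NICD-OE-HEC, 24.2% against 10.5% of all probe sets. The median difference of the 62 was 0.07, against -0.01 over all probe sets. Many of these genes have other known regulators, Notch among them, and the lists were chosen with earlier results of these data known.

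Among 11 genes linked to FOXC1 and FOXC2 in blood or lymphatic vessels, 4 were higher and 2 lower, with a median difference of 0.14. Over all probe sets 10.5% were called, and this list was chosen with earlier results of these data known. Cxcr4, a chemokine receptor of arterial and tip cells, averaged 8.06 ± 0.27 in NICD-OE-HEC and 5.16 ± 0.36 in Control (SD, n = 6 each; difference 2.90, SE 0.17, limma adjusted p = 2.77e-08). Itgb3, an integrin subunit, rose by 1.08 and Prox1 by 0.91, while the Wnt pathway ligand Rspo3 dropped by 1.12.

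Of 8 endothelial genes linked to FOXF1, 4 were higher and 2 lower, with a median difference of 0.16. The share called over all probe sets was 10.5%, and this list too was chosen with earlier results known. Pdgfb, a ligand that recruits mural cells, rose by 1.22 and the lipid receptor S1pr1 by 0.79. Tmem100, a membrane protein induced by BMP signalling, was higher by 1.09, with both group means (3.36 in NICD-OE-HEC, 2.27 in Control) below the array median. The VEGF receptor Kdr fell by 0.60.

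Of 15 measured corepressors that forkhead factors recruit, 1 was higher and 1 lower, where 10.5% of all probe sets were called. The median difference was -0.07. At an unadjusted p under 0.05 there were 6, where the share of all probe sets was 21.7%, and all 15 were above the array median in at least 1 group. Both called genes encode Groucho family corepressors: Tle3 averaged 7.50 ± 0.17 in NICD-OE-HEC and 6.80 ± 0.11 in Control, and Tle4 6.03 ± 0.18 in NICD-OE-HEC and 6.42 ± 0.13 in Control (SD, n = 6 each). The differences were 0.71 (SE 0.09, limma adjusted p = 1.17e-04) for Tle3 and -0.39 (SE 0.10, limma adjusted p = 0.0208) for Tle4.

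Of 18 measured cell-cycle targets of FOXM1, 1 was higher and 0 were lower in limma at the adjusted threshold, where 10.5% of all probe sets were called. At an unadjusted p under 0.05 there were 7 of the 18, where the share of all probe sets was 21.7%. Of these all but Cenpa were higher in NICD-OE-HEC. The median difference of the 18 was 0.14. The called gene was Cdk1, the kinase of mitotic entry, at 6.17 ± 0.18 in NICD-OE-HEC and 5.35 ± 0.45 in Control (SD, n = 6 each; difference 0.82, SE 0.18, limma adjusted p = 0.00624). Of 10 measured genes of motile cilia under FOXJ1, 0 were called in limma and 0 had an unadjusted p under 0.05. Of these 9 were below the array median in both groups, and the largest differences were 0.21 for Ccdc40 and 0.14 for Rsph4a, both needed for ciliary beating.

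**Figure D4:**
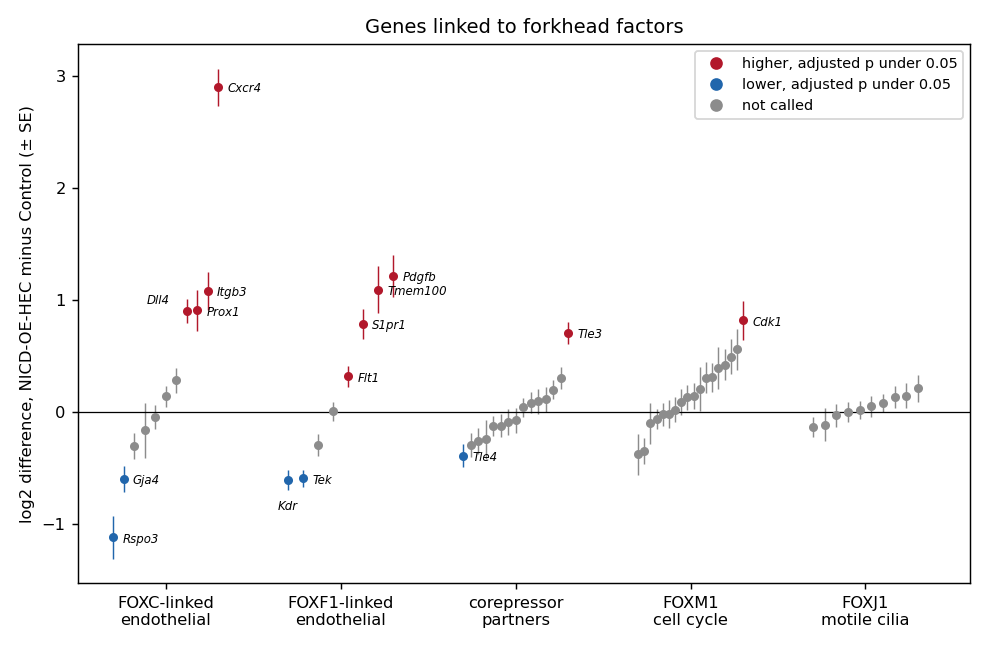
Log2 difference, NICD-OE-HEC minus Control, of the measured genes of 5 lists tied to forkhead factors, with limma's SE as a line and called genes named. The FOXC-linked and FOXF1-linked lists hold 4 higher and 2 lower genes each, the corepressor list 1 of each, the FOXM1 list 1 higher gene and the FOXJ1 list none.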

How the data were processed

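The deposited table holds 1 log2 value for each of 25428 probe sets on 12 arrays. The authors made these log2 values with RMA, per the submitters' processing notes, and software, chip definition and build were not given in the sources used here. Gene symbols came from the platform annotation, and the Entrez identifiers of all 40 members were found under the same symbol in RefSeq. Every array had a median of 3.67, and because quantiles are shared, a change of most genes in one direction would not show. Differences were fitted over all probe sets with limma 3.58.1 in R 4.3.3 (lmFit, eBayes, 2 groups, no covariates, no filter), adjusted by Benjamini-Hochberg, with two-sided p-values. SE is limma's, and for pairs of genes the SE of a difference of means. The fit was tested on simulated data. Within a group, pairs of arrays correlated at 0.976 to 0.992, with no duplicates. The labels call the samples biological replicates, and 6 arrays per group limit the precision.

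The members and lists were chosen with earlier results of these data known. Named are all called members, Foxc1, Foxc2 and Foxp1, members whose mean is above the array median in a group, and in each list up to 4 called genes, or the 2 genes that differed most if there was no call. Members outside this rule are named to complete counts or as relatives and neighbours, and they, Cdh5, Tie1, Erg and Cenpa were picked with values in view. Alternatives covered scaling, filters on dim probe sets, the variance model, array weights, a replicate block, single arrays left out and a minimum difference. Chosen after seeing the data were the fit without Control 2 and NICD-OE-HEC 4, and list means as covariates.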

Additional observations from a re-analysis of the deposited data

Results flagged for a closer look

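Among 48 groups of 6 arrays, those of the 24 members named by the rule, 4 held 1 array far from the rest by Dixon's criterion, which chance meets in about 1 in 20 groups. Control 2 was lowest for Foxc1 (4.07, the next at 4.65) and for Foxk1 (5.96, the next at 6.47). NICD-OE-HEC 3 was lowest for Foxm1 (3.67, the next at 4.12). NICD-OE-HEC 4 was lowest for Foxp1 (7.74, the next at 7.90).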

How the results depend on the processing

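Foxc2, Foxp4 and Foxn3 kept their direction and their call under every scaling, filter, variance and weighting alternative, with the replicate block and with each single array left out, and each lost the call with the early-response, mural or neutrophil mean as a covariate but not with the hepatocyte mean. Those means follow the groups, the hepatocyte mean least closely, and the fits that lost the calls left 674, 476 and 426 calls over all probe sets, in place of 2666. Over single arrays left out, the count of forkhead genes higher ran from 2 to 3 and that of genes lower from 1 to 1. With an absolute log2 difference of at least 1 required as well, Foxp4 and Foxn3 were no longer called, so 1 forkhead gene (Foxc2) was higher and 0 were lower, and 4 listed genes were higher and 1 lower. With the early-response, mural and neutrophil means as covariates, 0, 0 and 0 forkhead genes were higher and 0, 0 and 0 lower by limma, while 2, 3 and 2 of the listed genes were higher and 0, 0 and 1 lower. Listed genes lower numbered 8 with array weights and from 4 to 8 over single arrays left out, with 8 without Control 2, and listed genes higher numbered from 9 to 11. Above the 60th percentile in place of the median lay 13 members in NICD-OE-HEC and 12 in Control. Foxp1 was also called without the dimmest 25 percent of probe sets, with an intensity trend, with array weights, and without Control 4 or NICD-OE-HEC 4. The sign of 4 uncalled members near 0 turned over single arrays left out, with ranges from -0.032 to 0.12 for Foxa2, from -0.032 to 0.15 for Foxd2, from -0.060 to 0.072 for Foxe1 and from -0.16 to 0.053 for Foxi3, and Foxe1 was -0.059 with array weights and -0.12 without Control 2 and NICD-OE-HEC 4. The cause of these changes was not tested. The labels give no pairing of same-numbered arrays. Correlations of their deviations ran from -0.10 to 0.22, with 3 of 6 over 0.1 and 2 of 6 best with their own number. Some list means peaked on the same number in both groups: hepatocyte, neutrophil and macrophage on 1, early-response on 5. Others, such as the mural mean (2 in NICD-OE-HEC, 5 in Control), did not. Whether same-numbered arrays were handled together was not tested. With the replicate block 2 forkhead genes were higher and 1 lower. Low signal limits the members below the array median.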
